A study of Homo sapiens with 21 samples.

Results

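RUNX1 binding at the RUNX1 gene itself was described from chromatin immunoprecipitation and sequencing of tagged RUNX1. The cells were Jurkat, a widely used line grown from a human T-cell leukaemia. Peaks were taken when their summit lay between 36150 and 36480 kb of chromosome 21 in build hg19, a window of 330 kb that holds the whole gene. RUNX1 is read from the minus strand, from a distal promoter near 36421 kb and a proximal promoter near 36261 kb. The 14 peak lists placed 854 of their 791439 peaks in this window. Stretches of 100 bp on each side of a summit were merged across lists where they overlapped. This gave 183 regions in the window, here called sites, of 190855 in the genome.

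Mutant cells were single clones with a RUNX1 mutation knocked in, and the WT cells, which the design text calls parental, had wild-type RUNX1. R232fs, a frameshift, and Y287X, a stop codon, are truncating changes, and G365R replaces 1 amino acid. The mutant allele of such a clone carried the HA tag and its wild-type allele the TY1 tag. R232fs, Y287X and G365R each had 2 clones, with 1 HA and 1 TY1 list per clone. In the WT cells, the comparison, HA and TY1 both marked wild-type RUNX1, and there was 1 list of each. All cells were untreated. Cells were fixed for 15 min, and the 7 control samples have no list analysed here. The HA and TY1 lists of a replicate number share their clone. P-values of the main fit measure the spread between clones of a genotype and tag, pooled over the groups. That fit takes no account of the shared clone. In a second fit, with clone as a term, they measure the pooled spread of the HA minus TY1 difference between clones.

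RUNX1 binds DNA through its Runt domain, together with the partner protein CBFB, at sites that usually read TGTGGT or TGCGGT. Its transactivation domain lies in the C-terminal part of the protein, beyond the Runt domain. The distal and proximal promoters give products with different N-termini, and the exons that both kinds of transcript share lie downstream of the proximal promoter. The gene is known for binding by its own product and by other blood factors, including at enhancers in the long intron that separates the promoters.

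The lists were of different depth and of 2 kinds, which touches every comparison below. Highest summit pileups, the number of overlapping fragments at the strongest peak, ran from 2904 to 17735 in the R232fs and Y287X lists and from 385 to 480 in the G365R and WT lists. The lists held 30563 to 86433 peaks, and the commonest background pileup, the nearest measure of depth in a peak list, ran from 2.83 to 4.61. Genotype and kind of list therefore cannot be told apart between the truncating clones on the one side and G365R and WT on the other. HA and TY1 lists of 1 clone were of the same kind. In 2 TY1 lists, those of the first G365R clone and of WT, the pileups had been scaled.

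The proximal promoter is printed because whole peaks of all 14 lists overlapped the region nearest to its hg19 position. The printed bases are of another build, and no peak was placed on them. RefSeq gives for RUNX1 the promoter chr21:34888700-34888949 on the minus strand in build GRCh38.p14, which lies 160.6 kb from the 5′ end of the gene, against 160 kb between the 2 hg19 promoter positions. Capitals mark an ETS core, CCGGAA, and 2 CCAAT boxes, of which the second reads ATTGG because it is on the other strand:

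RUNX1 proximal promoter: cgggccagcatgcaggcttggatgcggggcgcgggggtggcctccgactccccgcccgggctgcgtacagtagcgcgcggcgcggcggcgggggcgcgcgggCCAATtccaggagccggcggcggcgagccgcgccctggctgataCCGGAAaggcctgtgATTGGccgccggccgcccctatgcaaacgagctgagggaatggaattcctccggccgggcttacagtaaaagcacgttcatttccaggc

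These 250 bases had a GC content of 71.2%. The letters TGTGGT and TGCGGT, searched on both strands, do not occur in them. Of 35116 RefSeq promoter entries of the same table, 10.98% hold TGTGGT, 5.84% hold TGCGGT, 14.5% hold CCGGAA and 32.01% hold CCAAT. The table has no entry for the distal promoter.

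RUNX1 bound its own gene at many places in all genotypes and with both tags. Windows of the same length were laid over the rest of the genome. Of the 8114 that held any region, only 1 held as many as 183 regions, beside a median of 17. Sites were densest between the promoters, with 123 sites over 160 kb, or 7.69 per 10 kb. The stretch downstream of the proximal promoter held 52 sites over 111 kb (4.68 per 10 kb), and the 59 kb upstream of the distal promoter held 8 (1.36 per 10 kb). In all 14 lists 13 sites were found, or 7.104% of the window's sites, beside 5.92% of all regions. Only 4 of the 8114 other windows held as many such regions. Sites found in only 1 of the 14 lists, whichever it was, numbered 61, or 33.3%, beside 42.3% of all regions.

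**Figure D1:**
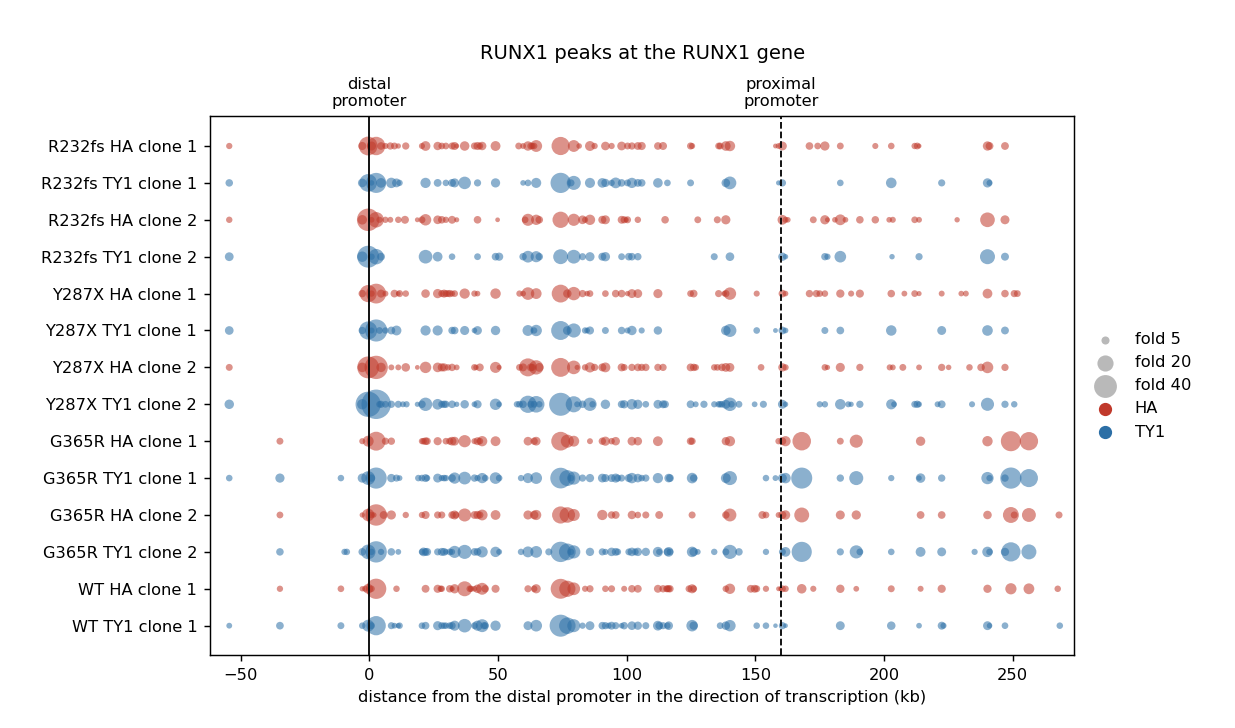
RUNX1 peaks at the RUNX1 gene in each of the 14 lists, against the distance in kb from the distal promoter along the direction of transcription; HA lists are red, TY1 lists blue, and the area of a point is the peak's fold over its own background. Strong peaks at the distal promoter and 74.3 kb into the gene are seen in every list, and strong peaks beyond the proximal promoter, at 168.0, 249.3 and 256.3 kb, are seen in the G365R lists and, smaller, in the WT HA list.

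The strongest site lay just inside the gene, 2.6 kb downstream of the distal promoter (36418255 to 36418642). A fold is the authors' ratio of a peak's summit to its local background. The folds in R232fs clones were 26.0 and 18.3 in the HA lists, against 30.8 and 18.3 in the TY1 lists. In Y287X clones they were 30.1 and 41.7 for HA, against 37.4 and 66.4 for TY1. G365R clones had 27.4 and 35.1 for HA, against 34.2 and 34.8 for TY1, and the WT cells had 31.5 for HA and 28.4 for TY1. The site thus stood high with either tag and in every genotype, and its fold lay between percentiles 96.4 and 99.7 of its list. Truncating and G365R lists overlapped.

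A second strong site lay inside the long intron stretch between the promoters, 74.3 kb from the distal one (36346514 to 36346854). Its folds were 25.4 and 20.3 (HA) against 31.4 and 16.98 (TY1) in R232fs clones, and 24.5 and 27.4 (HA) against 27.5 and 40.5 (TY1) in Y287X clones. They were 27.0 and 22.5 (HA) against 32.9 and 31.8 (TY1) in G365R clones, and 30.4 (HA) and 37.2 (TY1) in WT cells. Here too the folds of the groups overlapped, and the percentiles ran from 95.8 to 99.7. The normal scores did not overlap, at 0.86 to 1.79 in the truncating lists and 1.88 to 2.29 in the G365R and WT lists. Its neighbour at 79.4 kb (36341444 to 36341707) was lower but as even in fold, with values between 9.10 and 19.9 in the 14 lists. The next sites toward the distal promoter, at 64.8 kb (36356039 to 36356342) and 61.6 kb (36359070 to 36359654), were highest in the second Y287X clone. That clone had folds of 15.7 (HA) and 20.99 (TY1) at the site at 64.8 kb and of 24.8 (HA) and 22.7 (TY1) at the site at 61.6 kb.

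**Figure D2:**
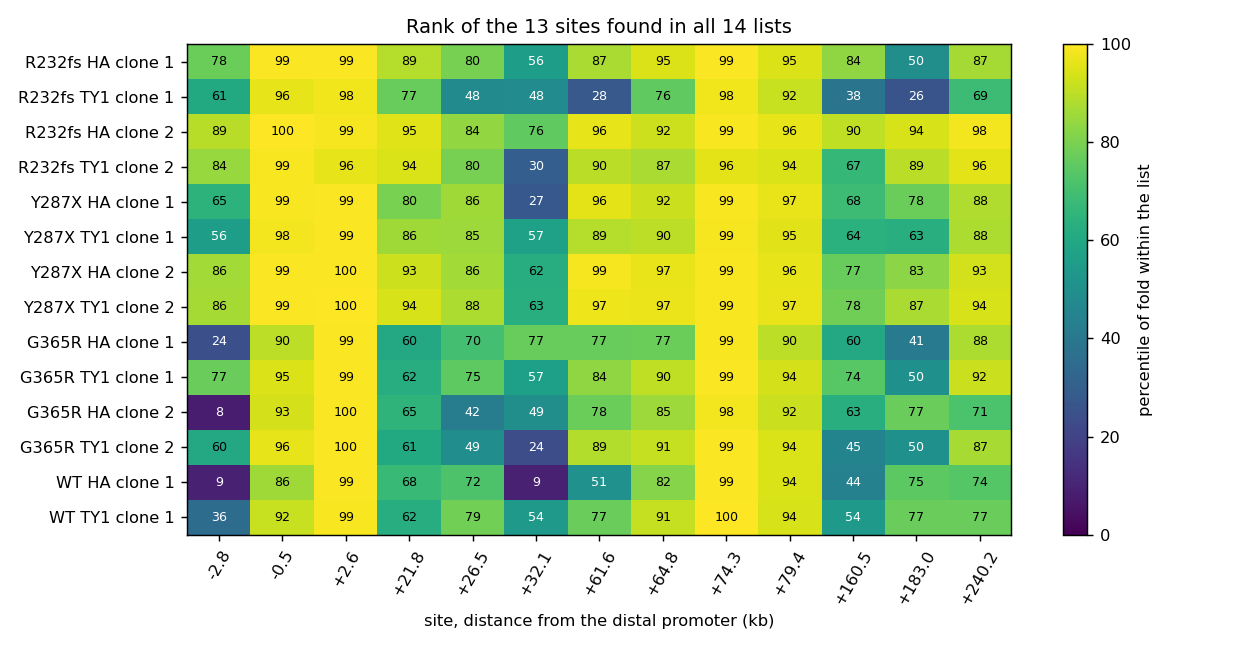
Percentile of fold within its own list for each of the 13 sites found in all 14 lists (columns, by distance in kb from the distal promoter) and each list (rows). The sites at +2.6 and +74.3 kb stay above percentile 95 in every list, and the site at -2.8 kb runs from 8.12 in the second G365R HA list to 89.2 in the second R232fs HA list.

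At the distal promoter itself the lists of the truncating clones had higher folds than those of G365R and WT cells, for the mutant protein and for the wild-type protein of the same clones alike. The site (36421366 to 36421649, centred at -0.5 kb, just upstream of the promoter position) had HA folds of 27.2 and 38.8 in R232fs clones and 22.6 and 36.7 in Y287X clones. The HA folds were 9.21 and 11.9 in G365R clones and 7.48 in WT cells, so that the groups did not overlap. TY1 followed the same order, with 23.9 and 36.8 in R232fs clones and 25.1 and 48.9 in Y287X clones, against 14.6 and 16.6 in G365R clones and 10.9 in WT cells. With either tag, the folds of the truncating clones lay above those of G365R and WT, the lists of the other kind.

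Folds were compared between lists as ranks, turned into normal scores whose unit is 1 SD of a list, at the 11291 regions found in all 14 lists. In limma with Benjamini-Hochberg adjustment over all 11291 regions, the distal promoter site rose in truncating HA against G365R HA lists by 0.80 ± 0.20 (SE, adjusted p = 0.0356). It was the only call among the 13 shared sites, and 9.53% of all regions were called in that contrast (5.66% higher). The R232fs HA lists were 1.31 ± 0.28 above the single WT HA list (limma, adjusted p = 0.0434), a value that takes that list, with no spread of its own, to vary like the other groups. There 2.44% of all regions were called (1.54% higher). In Y287X HA against WT HA lists the difference was 1.11 ± 0.28 (limma, adjusted p = 0.128), beside 0.151% of regions called. The TY1 lists of the truncating clones were 0.49 ± 0.20 above those of G365R (limma, adjusted p = 0.159), with 4.57% of regions called. G365R HA lists were 0.41 ± 0.28 above WT HA (limma, adjusted p = 1.0; 0.0% of regions called), and 354 regions had an unadjusted p under 0.05. Against WT TY1, no TY1 list of a mutant genotype differed at any of the 13 sites (limma), beside 0.478% of regions called for R232fs, 0.177% for Y287X and 0.0% for G365R. At an unadjusted p under 0.05 these counts were 5, 2 and 1 of 13, beside 18.7%, 15.3% and 2.96% of all regions.

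The local background moved with these differences. Solved from the fold and the −log10 p, it was 5.52 to 7.86 fragments at the distal promoter in the R232fs and Y287X lists, 7.32 to 11.98 in the G365R lists, and 19.6 (HA) and 18.9 (TY1) in the WT lists. The summit pileup there was 204 and 305 fragments in R232fs HA lists, 89 and 98 in G365R HA lists and 153 in the WT HA list. With TY1 it was 177 and 285 in R232fs lists and 221 and 318 in Y287X lists. The G365R TY1 lists had 188 (scaled) and 179 and the WT TY1 list 216 (scaled). The TY1 pileups of the groups thus overlapped, unlike the TY1 folds. On ranks of that pileup the truncating HA minus G365R HA difference was 0.31 ± 0.10 (limma, adjusted p = 0.0256), and the R232fs HA minus WT HA difference turned to -0.05 ± 0.14 (limma, adjusted p = 0.798). Ranks of −log10 p gave 0.42 ± 0.16 (adjusted p = 0.0524) for truncating HA minus G365R HA and 0.48 ± 0.22 (adjusted p = 0.126) for R232fs HA minus WT HA in limma. The truncating call was lost without either G365R clone (adjusted p = 0.307 and 0.230) and without either Y287X clone (adjusted p = 0.0661 and 0.111). The R232fs against WT call was lost without the second R232fs clone (adjusted p = 0.0816) and without any Y287X or G365R clone (adjusted p 0.0766 to 0.136).

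A weaker site lay further upstream at -2.8 kb (36423648 to 36423927). In G365R clones HA had folds of 2.83 and 2.18, against 6.45 and 4.46 for TY1, so the mutant protein was lower in both clones. In R232fs clones the folds were 5.13 and 6.93 for HA and 5.74 and 8.39 for TY1, in Y287X clones 4.28 and 7.05 for HA and 4.19 and 8.20 for TY1, and in WT cells 2.22 for HA and 3.28 for TY1. On ranks, G365R HA minus TY1 was -0.72 ± 0.32 (limma, adjusted p = 0.956), and with clone as a term -0.72 ± 0.16 (limma, adjusted p = 0.0484), where 4.08% of all regions were called. This call was lost whichever mutant clone was left out (adjusted p 0.0567 to 0.302). The HA minus TY1 difference was larger in truncating than in G365R clones by 0.91 ± 0.20 with clone as a term (limma, adjusted p = 0.0198). Without that term it was 0.91 ± 0.39 (limma, adjusted p = 0.456), and with it the call was lost without either G365R clone (adjusted p = 0.115 and 0.111) or the first Y287X clone (adjusted p = 0.0551).

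The site at the proximal promoter was of another shape. It was centred 160.5 kb from the distal promoter (36260336 to 36260665), or 0.5 kb inside the proximal one, with peaks 465 to 3588 bp wide (median 2462) on a local background of 31.3 to 60.2 fragments. HA folds were 5.99 and 7.30 in R232fs clones, against 4.03 and 5.38 for TY1. They were 4.51 and 5.37 for HA and 4.71 and 6.12 for TY1 in Y287X clones, and 4.47 and 4.90 for HA and 5.98 and 3.74 for TY1 in G365R clones. WT cells had 3.62 for HA and 4.02 for TY1. Percentiles ran from 38.3 to 90.3, and in each of the 14 lists that of the distal promoter site was higher. The region nearest to the proximal promoter position (36261145 to 36261345) had a summit in the WT HA list alone, with a fold of 1.73, although whole peaks of all 14 lists overlapped it.

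As a rank within its list, the proximal promoter site was higher for HA than for TY1 in all 6 mutant clones. The HA minus TY1 score was 0.72 and 1.06 in R232fs clones, 0.34 and 0.31 in Y287X clones and 0.21 and 0.88 in G365R clones. It was also 0.38 in the WT cells, where HA marks no mutant protein. The mean over mutant clones was 0.59 ± 0.16 (limma, adjusted p = 0.300), with 0.0% of all regions called and 1120 regions at an unadjusted p under 0.05. With clone as a term it was 0.59 ± 0.11 (limma, adjusted p = 0.0177), beside 15.3% of all regions called (7.31% higher). That call was lost without the second G365R clone (adjusted p = 0.0660) and without the first Y287X clone (adjusted p = 0.0607).

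**Figure D3:**
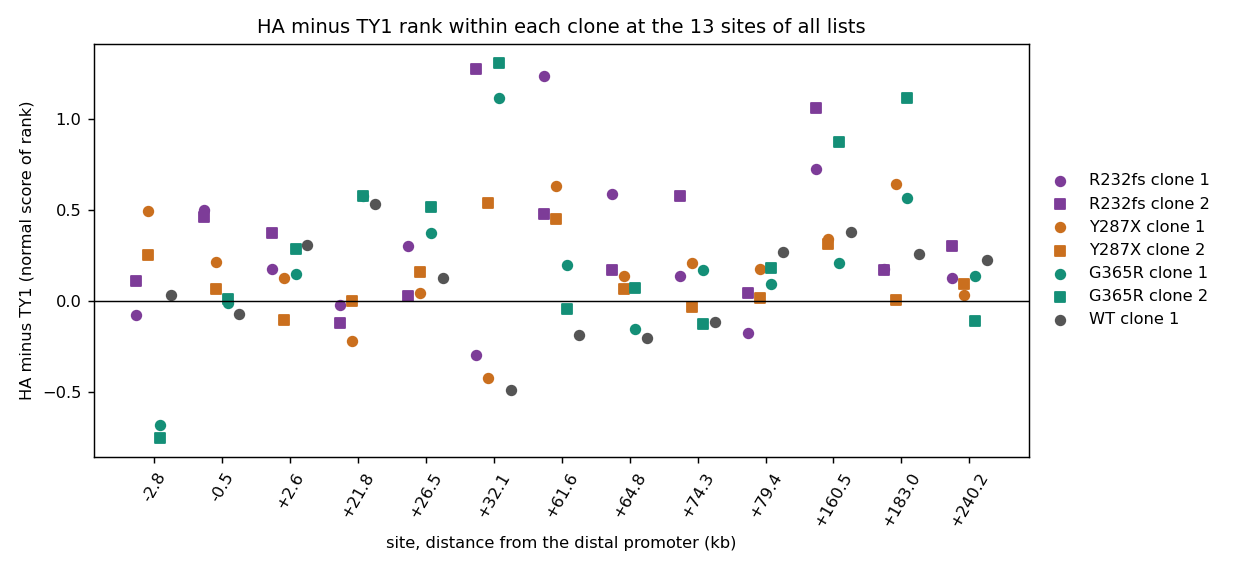
HA minus TY1 difference in normal score within each of the 6 mutant clones and the WT cells at the 13 sites found in all 14 lists. A value above 0 means a higher rank for HA among the 11291 regions found in all 14 lists, and each point is 1 pair of lists. All 6 mutant clones lie above 0 at +26.5, +160.5 and +183.0 kb, as do the WT cells, and at -2.8 kb the 2 G365R clones lie at -0.68 and -0.75.

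Within genotypes, none of the 13 shared sites passed the threshold between HA and TY1 without a clone term, and 0.0% of all 11291 regions did (limma). Counts of shared sites at an unadjusted p under 0.05 were 1 in R232fs, 0 in Y287X and 2 in G365R, beside 12.1%, 4.1% and 5.23% of all regions. With clone as a term 3 of 13 rose in R232fs (21.7% of all regions called, 10.4% higher), 0 of 13 changed in Y287X (0.815%) and 1 of 13 fell in G365R (4.08%, with 1.6% lower). The 3 were the distal promoter site (0.48 ± 0.10), the proximal promoter site (0.89 ± 0.20) and the site at 61.6 kb (0.86 ± 0.19), with limma adjusted p of 0.0176, 0.0186 and 0.0201. The first and second calls were lost without either R232fs clone (adjusted p = 0.0893 and 0.104, and 0.0510 and 0.153), and the third without the first R232fs clone (adjusted p = 0.160). At this share of calls in the genome, 3 of 13 is near the background. Over the mutant clones together 3 of 13 rose with clone as a term, beside 15.3% of all regions called (7.31% higher). They were the sites at 61.6 kb (0.49 ± 0.11), 160.5 kb and 183.0 kb (0.45 ± 0.12). The call at 61.6 kb was lost without either G365R or either Y287X clone (adjusted p 0.0625 to 0.0999), and that at 183.0 kb without any clone but the second Y287X clone (adjusted p 0.0690 to 0.141).

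The HA score was higher in all 6 mutant clones at 3 of the 13 sites, in 5 at 6 sites, in 4 at 2 sites and in 3 at 2 sites. Over all regions it was higher at 49.4% to 51.5% in each clone. How many of all regions had the same sign in all 6 clones was not counted, so these counts have no background. The median HA minus TY1 difference over the 13 sites was 0.18 and 0.30 in R232fs clones, 0.18 and 0.07 in Y287X clones, 0.17 and 0.18 in G365R clones and 0.12 in WT cells. Over all regions the medians lay between -0.0043 and 0.017. Against the single WT TY1 list, the median TY1 difference over the 13 sites was -0.524 in R232fs, -0.011 in Y287X and -0.073 in G365R. Over all regions these TY1 medians were 0.049, 0.030 and -0.019. No HA minus TY1 difference of R232fs, Y287X or G365R differed from that of WT at any of the 13 sites with limma, with or without a clone term. With it, 3.06% of all regions were called for R232fs and 0.0% for Y287X and G365R. At an unadjusted p under 0.05 the counts were 0, 0 and 0 without the term (5.44%, 2.51% and 0.399% of all regions) and 3, 1 and 2 with it (25.3%, 17.6% and 3.59%).

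One site between the promoters differed in the opposite sense to the -2.8 kb site. At 21.8 kb (36399092 to 36399318) summits of all lists fell within 26 bp. HA folds were 7.24 and 10.03 in R232fs clones and 5.64 and 9.97 in Y287X clones, against TY1 folds of 8.06 and 14.3 in R232fs clones and 7.94 and 13.7 in Y287X clones. G365R clones had 4.49 and 5.00 for HA and 4.83 and 4.49 for TY1, and WT cells had 4.76 for HA and 4.53 for TY1. The HA minus TY1 difference in score was lower in truncating than in G365R clones by -0.66 ± 0.18 with clone as a term (limma, adjusted p = 0.0379; 17.1% of all regions called). Without that term it was -0.66 ± 0.35 (limma, adjusted p = 0.554). With it, the call held without the first R232fs clone (adjusted p = 0.0494) and was lost without any other mutant clone (adjusted p 0.0549 to 0.175). The WT cells had an HA minus TY1 score of 0.53, close to the 0.57 of each G365R clone.

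Other shared sites were lower or less even. At 26.5 kb (36394357 to 36394635) folds ran from 3.87 to 8.72, and at 32.1 kb (36388398 to 36389471) from 2.22 to 5.81, with summits spread over 873 bp. Downstream of the proximal promoter, at 183.0 kb (36237899 to 36238150), R232fs clones had HA folds of 3.59 and 8.98, against TY1 folds of 3.35 and 10.4. Y287X clones had 5.25 and 6.32 (HA) against 4.57 and 8.57 (TY1), G365R clones 3.64 and 6.23 (HA) against 4.15 and 3.94 (TY1), and WT cells 5.39 (HA) and 6.04 (TY1). Ranks here among the 11291 regions found in all 14 lists were higher for HA in all 6 mutant clones, as given above. Percentiles in the whole list were lower for HA in the first G365R clone (40.7 against 50.3) and second Y287X clone (82.6 against 87.3). In WT cells too HA was lower (75.0 against 77.1), and in the other mutant clones it was higher. At 240.2 kb (36180635 to 36180871) the second R232fs clone stood above the rest, with 16.5 (HA) and 17.2 (TY1), against 5.24 to 13.2 in the other 12 lists.

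Beyond the proximal promoter, 5 sites had peaks in the G365R clones with both tags and in the WT HA list, and in no other list. They were chosen after their values were seen, and no test is given. From general knowledge of the gene they may lie on coding exons, but no hg19 annotation was used here. Introduced RUNX1 sequence, such as a knock-in donor or a tagged cDNA, could also give such peaks, and its part in these folds was not tested. The values are therefore those of peaks, and whether RUNX1 binds there is not known from them. At 168.0 kb (36252860 to 36253075) the folds were 26.3 and 17.1 for HA and 33.9 and 31.1 for TY1 in G365R clones, and 6.98 in the WT HA list. At 249.3 kb (36171539 to 36171791) they were 30.9 and 19.5 for HA and 34.5 and 28.3 for TY1 in G365R clones, and 9.66 in the WT HA list. Their percentiles were 96.9 to 99.5 in the G365R lists.

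The other such sites were at 256.3, 189.2 and 214.2 kb. At 256.3 kb (36164557 to 36164780) G365R folds were 25.8 and 14.8 for HA and 25.0 and 17.2 for TY1, and the WT HA fold was 8.94. At 189.2 kb (36231706 to 36231914) G365R folds were 13.2 and 6.53 for HA and 15.1 and 13.3 for TY1, and the WT HA fold was 2.54. At 214.2 kb (36206641 to 36206881) G365R folds were 6.72 and 4.63 for HA and 6.89 and 7.40 for TY1, and the WT HA fold was 2.77. At each of the 5 sites the WT HA list had the lowest fold and percentile, and HA was lower than TY1 in the second G365R clone.

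No whole peak of the R232fs, Y287X and WT TY1 lists overlapped any of these 5 sites. Their summits agreed within 8 to 52 bp. Peaks in exactly these 5 lists are rare in the genome, at 35 regions or 0.0183% of all regions, and 5 of them, or 14.3%, lie in the RUNX1 window. Ordered by median fold among the 35, the sites at 249.3, 168.0, 256.3 and 189.2 kb hold the first 4 places and the site at 214.2 kb the eighth. Just inside the proximal promoter, at 161.7 kb (36259117 to 36259424), a site in 12 lists showed a like order. Its folds were 8.01 and 6.81 for HA and 8.39 and 7.25 for TY1 in G365R clones, against 3.28 (HA) and 1.70 (TY1) in WT cells and 2.23 to 3.12 in the 6 R232fs and Y287X lists that held it. This site too was named after its values were seen, and the part of introduced RUNX1 sequence in its folds was not tested.

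**Figure D4:**
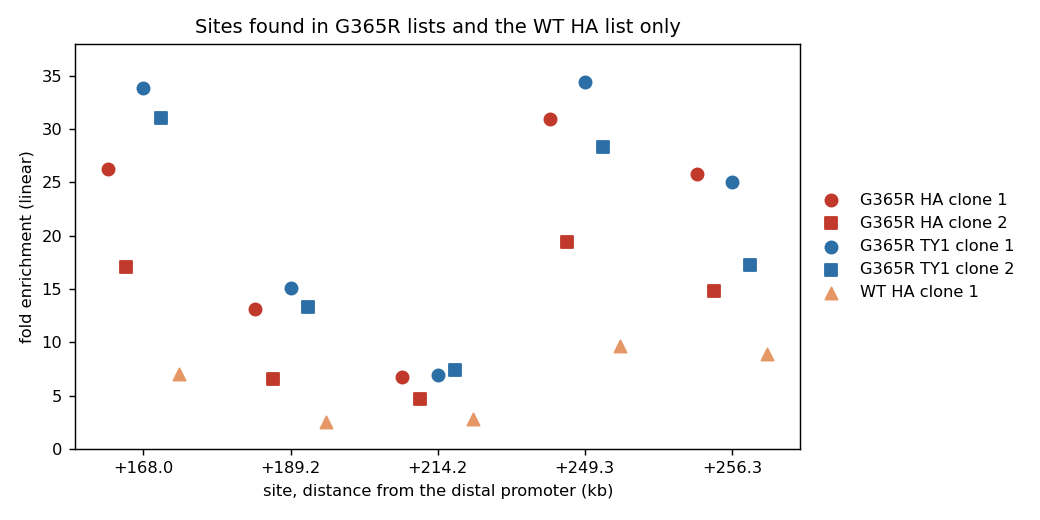
Fold over local background (linear axis from 0) at the 5 sites found in the 4 G365R lists and the WT HA list and in no other list, by distance in kb from the distal promoter; each point is 1 list. The WT HA point is the lowest at every site, at 2.54 to 9.66, and the G365R points reach 34.5.

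A further 3 sites were held by all 6 G365R and WT lists, with both tags, and by few or none of the truncating lists. At 76.9 kb (36343926 to 36344217) G365R folds were 13.1 and 18.5 for HA and 19.4 and 21.5 for TY1, and WT folds were 20.2 for HA and 20.9 for TY1. Of the truncating clones the first Y287X clone alone held the site, at 5.46 (HA) and 5.87 (TY1). At 43.8 kb (36376998 to 36377312) the 6 G365R and WT lists had 8.10 to 12.8 and the first R232fs HA list 5.49. Upstream of the distal promoter, at -34.8 kb (36455643 to 36456008), the 6 G365R and WT lists had 3.04 to 6.49 and no truncating list had a summit, a pattern shared by 0.252% of all regions. The sites at 43.8 and -34.8 kb were named after their values were seen. No site of the window was in all 8 truncating lists and in none of the others, a pattern of 0.176% of regions.

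Sites with a summit for both HA lists of a genotype and neither TY1 list, or the reverse, were weak. In R232fs 8 sites (4.37% of 183, beside 3.98% of all regions) had HA summits only and 0 had TY1 summits only, beside 0.27% of all regions. The strongest by median fold were at 28.1 kb (36392746 to 36393047), 196.6 kb (36224261 to 36224514) and 211.9 kb (36209020 to 36209263), with HA folds of 2.85 to 4.39 in these clones. In G365R 12 sites (6.56%, beside 7.85%) had TY1 summits only, led by those at 116.3 kb (36304607 to 36304863), 247.0 kb (36173823 to 36174108) and 29.0 kb (36391805 to 36392201), with TY1 folds of 3.34 to 7.23. These shares lie near those of all regions.

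Smaller classes were named in full. Among the G365R lists, only the HA lists had summits at 159.0 kb (36261885 to 36262129), 64.0 kb (36356706 to 36357253) and 42.9 kb (36377868 to 36378327). These were 1.64% of the window's sites, beside 0.24% of all regions, and lists of other genotypes also had summits there. At the site at 159.0 kb, however, whole peaks of all 14 lists overlapped, and at the site at 64.0 kb those of 11 lists. Among the Y287X lists, only the HA lists had summits at 126.0 kb (36294822 to 36295089), 30.5 kb (36390343 to 36390687) and 14.1 kb (36406699 to 36407037), a pattern of 0.679% of all regions. Only the TY1 lists of Y287X had summits at 64.0 kb and at 3.9 kb (36416957 to 36417339), again among the Y287X lists, a pattern of 1.2% of all regions. The site at 64.0 kb thus had HA summits only in G365R and TY1 summits only in Y287X. All 4 lists of a genotype held 20 sites in R232fs (10.9%, beside 13.4%), 26 in Y287X (14.2%, beside 15.6%) and 37 in G365R (20.2%, beside 10.4%). In the WT cells 45 sites were in both lists (24.6%, beside 16.3%), 21 in HA alone (11.5%, beside 3.33%) and 23 in TY1 alone (12.6%, beside 14.8%). The 37 sites of G365R and the 21 of WT HA include the 5 sites above where binding is not known from the peaks.

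The number of peaks in the window did not differ between HA and TY1 past the threshold. R232fs clones had 68 and 58 HA peaks, against 45 and 37 TY1 peaks. Y287X clones had 67 and 69 HA peaks, against 44 and 80 TY1 peaks, and G365R clones had 49 and 54 HA peaks, against 71 and 76 TY1 peaks. WT cells had 66 HA and 70 TY1 peaks. HA was thus higher in both R232fs clones and lower in both G365R clones, and the Y287X clones were split. R232fs clones averaged 63 ± 7.07 HA and 41 ± 5.66 TY1 peaks, Y287X clones 68 ± 1.41 HA and 62 ± 25.5 TY1 peaks, and G365R clones 51.5 ± 3.54 HA and 73.5 ± 3.54 TY1 peaks (SD, n = 2 each). Averaged over the 6 mutant clones the HA over TY1 ratio was 1.07 (2-sided exact permutation of tags within genotype, 216 arrangements, p = 0.667), with HA higher in 3 of 6 clones.

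The commonest background, the nearest measure of list depth, moved with these numbers. In 7 of 7 pairs of HA and TY1 lists, those of the 6 mutant clones and of the WT cells, the one with more peaks in the window had the higher commonest background, for example 3.92 (HA) and 2.83 (TY1) in the first R232fs clone and 3.22 (HA) and 4.54 (TY1) in the second G365R clone. In the second Y287X clone and the WT cells the difference was small, and the scaled TY1 lists are not a like measure. Lists cut to the same length of 30563 peaks gave ratios of 1.03 in R232fs, 1.05 in Y287X, 1.43 in G365R and 1.93 in WT, so the direction in G365R and WT turned.

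Per 10000 peaks of the list, the window held 8.75 and 6.71 HA peaks against 11.2 and 6.26 TY1 peaks in R232fs clones. It held 12.9 and 10.2 against 8.84 and 9.81 in Y287X clones, 16.01 and 17.7 against 12.4 and 12.3 in G365R clones, and 17.6 against 11.8 in WT cells. The ratio over mutant clones was 1.15 (exact permutation p = 0.231), with HA higher in 5 of 6 clones. Without the first R232fs clone it was 1.22 (exact permutation p = 0.0278, HA higher in 5 of 5). The WT ratio, 1.496 with no mutant protein, was larger than that of any mutant genotype, the largest of which was 1.36 in G365R. Whether the mutant ratios differ from it was not tested.

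**Figure D5:**
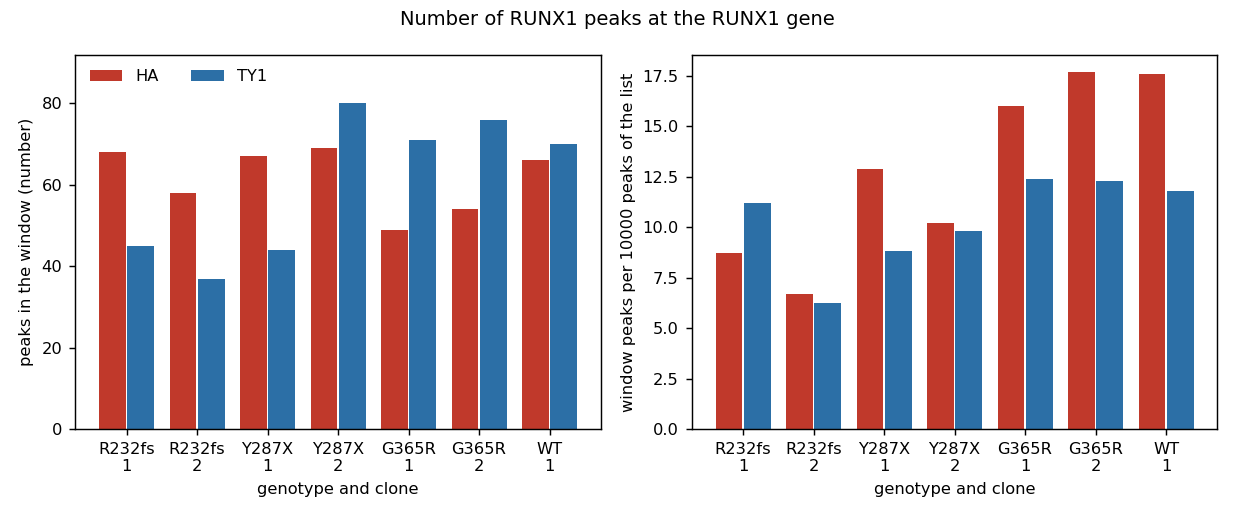
Peaks with a summit in the RUNX1 window in each list (left, number of peaks; right, per 10000 peaks of the list; both axes start at 0), with the HA bar left of the TY1 bar for each clone; each bar is 1 list. HA is higher in both R232fs clones and lower in both G365R clones by number, and higher in both G365R clones and WT per 10000 peaks.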

How the data were processed

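Peaks of tagged RUNX1 were analysed from 14 narrowPeak lists, each made from a single library. The submitters' processing notes name CASAVA 1.8, Bowtie2 2.2.9, MACS2 2.2.7.1 and hg19. How the caller was set, and with which controls, is not given in the sources used here. The authors deposited a fold (a linear ratio), the −log10 p-value and −log10 q-value, the score and the summit offset of every peak. Depth is not part of these files. Summit pileup and local background were solved from fold and −log10 p with a pseudocount of 1. Summits were widened by 100 bp on each side and merged over lists. Coordinates are hg19, counted from 1. At regions in all 14 lists, fold ranks within a list became normal scores, fitted with limma 3.58.1 (trend, 8 groups of genotype and tag, 6 residual degrees of freedom, Benjamini-Hochberg over all regions, threshold 0.05) in R 4.3.3. The single WT list of each tag was taken to vary as the other groups do. HA and TY1 lists of 1 number share a clone, per the deposited clone names. Their departures from group means correlated at r = 0.792 (R232fs), 0.702 (Y287X) and 0.503 (G365R), so the numbers pair the lists. A second fit, with clone added as a term (leaving 3 residual degrees of freedom) or as a random effect between genotypes, is given where it changes a call. Other work used Python 3.11.15 with scipy 1.17.1, numpy 2.4.6 and pandas 2.3.3. The methods were tested on simulated data.

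The window, the sites named and the comparisons were chosen with earlier results of these data known. Sites were named when they were in all 14 lists, nearest to a promoter, among the 5 highest by median percentile, in both lists of 1 tag and neither of the other (all, or the 3 of highest median fold where more than 5), or past the threshold of a fit. Sites at -34.8, 43.8 and 161.7 kb, and the 5 sites of the G365R and WT HA lists, were added after their values were seen. Alternatives were other ranks, filters, overlaps, windows and list lengths, and leaving out each mutant clone.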

Additional observations from a re-analysis of the deposited data

Results flagged for a closer look

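R232fs and G365R clones moved in opposite directions in the number of window peaks. HA over TY1 was higher by 1.14 on the log2 scale in R232fs than in G365R, with both clones of each genotype on their own side. This difference was not tested. In each of these clones the list with more peaks had the higher commonest background, though the TY1 list of the first G365R clone was scaled.

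Sites at 21.8 and -2.8 kb differed in the HA minus TY1 score between truncating and G365R clones in the fit with clone as a term. The difference, truncating minus G365R, was -0.66 at the first (36399092) and 0.91 at the second (36423648). It passed the threshold at neither site without the clone term.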

How the results depend on the processing

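Counts of called sites among the 13 shared ones changed with the measure ranked and with pairing by clone; the share of all regions called stands in parentheses. With the replicate block (clone as a term) and fold ranks they were 3 in R232fs (21.7%), 1 in G365R (4.08%) and 3 over mutant clones (15.3%) for HA minus TY1, and 2 for the truncating minus G365R difference (17.1%), against 0 without it; it changed no other count. With the block and ranks of −log10 p they were 3 in R232fs (22.2%), 6 in G365R (22%, 5 higher), 4 over mutant clones (22%), 6 for truncating minus G365R (28.4%, 3 higher) and 1 for R232fs minus WT (17.8%). Between genotypes these ranks with a random clone effect gave 4 for truncating against G365R with HA (39.8%, 3 lower) and 4 with TY1 (25.7%, 3 lower). Against WT they gave 4 for R232fs HA (29.4%, 3 lower), 1 for Y287X HA (22%, lower), 3 for R232fs TY1 (14%, 2 lower) and 2 for Y287X TY1 (11.1%, 1 lower). Without the block, ranks of −log10 p gave 5 for truncating HA (39.6%, 4 lower), 4 for truncating TY1 (24.3%, 3 lower), 3 for R232fs HA (28.5%, 3 lower), 3 for R232fs TY1 (12.3%, 2 lower) and 2 for Y287X TY1 (9.97%, 1 lower). Ranks of the solved pileup gave 6 for truncating HA (40.6%, 4 lower), 2 for truncating TY1 (18.1%, both lower), 5 for R232fs HA (35.5%, 4 lower), 3 for Y287X HA (31.9%, 3 lower), 2 for R232fs TY1 (5.16%, both lower), 1 for Y287X TY1 (3.91%, lower) and 1 higher for HA minus TY1 over mutant clones (3.26%). The distal promoter site then turned to -0.0514 in R232fs HA minus WT HA. Most calls between genotypes under these other ranks were thus lower, and their share was near that of all regions for truncating against G365R. The calls between genotypes on fold ranks of all 14 lists at the 13 shared sites were higher. Fold ranks of regions in at least 10 lists gave 3 of 28 for truncating HA (17.5%, 1 lower). They gave 1 of 29 for truncating TY1 (0.739%, lower) and 1 of 29 for Y287X HA (3.39%, higher). R232fs HA against WT HA gave 0 with centred log2 fold, with 250 bp on each side of a summit and with whole peaks merged.

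Leaving out 1 clone, with or without the block, gave 0 to 3 calls in R232fs HA minus TY1 (up to 19% of all regions), 0 to 3 over mutant clones (up to 12.9%) and 0 to 3 for truncating minus G365R (up to 16.2%). In G365R HA minus TY1 it gave 0 to 1 (up to 3.96%), and the 1 was a higher site, not the lower one at -2.8 kb. It gave 0 to 3 for truncating HA (up to 23.6%), 0 to 4 for truncating TY1 (up to 23.4%), 0 to 2 for R232fs HA against WT HA (up to 14.8%) and 0 to 3 for R232fs TY1 against WT TY1 (up to 17.3%). The HA over TY1 ratio per 10000 peaks ran from 1.091 to 1.221 and that of peak number from 0.976 to 1.18. The 5 sites of the G365R and WT HA lists, left out as an alternative chosen after seeing the data, moved these ratios to 1.14 and 1.06. With 2 clones a genotype and 1 WT list per tag, and depth known only through the background value, small differences could not be resolved. The cause of the changes above was not tested.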

Other observations

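Outside the window, the regions whose scores followed the site at 2.6 kb most closely over the 14 lists were on chromosome 1 (22623280 to 22623537, Pearson r = 0.947), chromosome 21 (46529695 to 46529976, r = 0.938) and chromosome 7 (75575608 to 75575946, r = 0.926). These are the highest of 11291 regions by choice, the lists share clones and depth, and no p is given.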
